A study of Mus musculus with 4 samples.

Results

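The levels of 44 interferon-stimulated genes were followed across the tumour, glial and immune cells of 4 mouse medulloblastomas. The genes were taken by name from a fixed list of interferon-responsive regulators and effectors, and a gene was kept if at least 1 of the 4 deposited tables listed it. All 44 met that rule, of 33219 genes listed in at least 1 table, and 27 of the 44 were listed in all 4 tables. The 4 libraries came from a single untreated group: end-point medulloblastomas of the sonic hedgehog subgroup, arising in Ptch1+/- mice irradiated at birth. Every library therefore carried the same heterozygous Ptch1 allele and the same irradiation, and no unirradiated, wild-type or interferon-treated brain was among them. Cells had been frozen viably as suspensions, stained with propidium iodide or DAPI, sorted for live cells and profiled on the 10x Genomics platform. The labels number the libraries as replicates 1 to 4 (tumours 1 to 4 here) without saying that each came from a separate mouse. The comparisons are accordingly between cell classes within tumours, with the tumour as the unit of replication.

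Interferons are secreted proteins, and cells release those of type I when they sense viral or misplaced nucleic acid. Type I interferons bind the Ifnar1 and Ifnar2 receptor chains, and interferon gamma binds Ifngr1 and Ifngr2. Both receptors signal through Janus kinases and STAT proteins. Stat2 and Irf9 belong to the complex that binds the interferon-stimulated response element, and the response to interferon gamma also uses the gamma-activated site. The induced genes include more of the signalling apparatus itself, sensors of RNA, and effectors that block viral entry, translation or release. In the brain, microglia and infiltrating leukocytes are well known for strong interferon responses. Several members, the Ifitm genes among them, also have a basal level in many cell types without interferon.

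Windows from 250 bases before to 50 bases after an annotated start (RefSeq, GRCm38.p6) were available for 33 of the 44 genes. The letters GAAA, any 2 bases and GAAA again, searched on both strands as the core of the interferon-stimulated response element, occurred in 17 of these 33 (51.5%), against 3.99% of 27025 genes with a window of the same length. The letters TTCNNNGAA, the gamma-activated site, occurred in 11 of the 33 (33.3%), against 9.55% of all genes. Matches are descriptions of letters, not of bound sites, and overlaps between both kinds of match were not removed. Of the windows below, Isg15 and Ifit3 belong to the classic type I response, Bst2 led the plasmacytoid dendritic cell-like cells, and the 3 Ifitm genes, neighbours on chromosome 7, differed in which cells carried them. Capitals mark the matches to the response element letters on either strand, with overlapping matches merged.
Isg15 promoter, chr4:156200769-156201068, minus strand: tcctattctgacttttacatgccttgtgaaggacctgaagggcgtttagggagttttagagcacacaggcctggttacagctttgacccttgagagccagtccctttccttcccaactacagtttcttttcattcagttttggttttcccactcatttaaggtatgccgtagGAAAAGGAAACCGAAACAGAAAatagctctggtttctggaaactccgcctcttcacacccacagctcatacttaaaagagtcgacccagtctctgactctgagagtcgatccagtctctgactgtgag
Ifit3 promoter, chr19:34583279-34583578, plus strand: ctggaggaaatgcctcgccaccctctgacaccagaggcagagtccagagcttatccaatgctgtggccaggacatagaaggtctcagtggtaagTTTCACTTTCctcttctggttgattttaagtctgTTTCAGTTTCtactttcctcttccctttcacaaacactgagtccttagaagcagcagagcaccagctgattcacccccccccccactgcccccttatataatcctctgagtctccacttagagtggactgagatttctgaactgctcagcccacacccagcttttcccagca
Bst2 promoter, chr8:71537423-71537722, minus strand: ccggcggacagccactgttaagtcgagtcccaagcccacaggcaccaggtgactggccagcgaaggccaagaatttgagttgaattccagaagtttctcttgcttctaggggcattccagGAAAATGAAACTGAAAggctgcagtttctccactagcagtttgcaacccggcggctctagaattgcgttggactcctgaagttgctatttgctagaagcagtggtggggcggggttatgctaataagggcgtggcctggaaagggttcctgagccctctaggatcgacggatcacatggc
Ifitm2 promoter, chr7:140955912-140956211, minus strand: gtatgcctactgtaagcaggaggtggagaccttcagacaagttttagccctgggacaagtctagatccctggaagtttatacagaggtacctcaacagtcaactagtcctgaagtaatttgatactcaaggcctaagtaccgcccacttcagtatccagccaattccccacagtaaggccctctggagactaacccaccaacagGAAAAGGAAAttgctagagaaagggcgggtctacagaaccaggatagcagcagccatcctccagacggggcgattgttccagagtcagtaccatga
Ifitm3 promoter, chr7:141010695-141010994, minus strand: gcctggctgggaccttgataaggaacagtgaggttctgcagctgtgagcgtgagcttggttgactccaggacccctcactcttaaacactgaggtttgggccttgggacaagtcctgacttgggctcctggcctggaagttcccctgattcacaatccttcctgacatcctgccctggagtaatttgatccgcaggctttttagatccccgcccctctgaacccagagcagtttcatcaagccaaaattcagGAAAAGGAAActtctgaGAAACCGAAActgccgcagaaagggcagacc
Ifitm1 promoter, chr7:140967826-140968125, plus strand: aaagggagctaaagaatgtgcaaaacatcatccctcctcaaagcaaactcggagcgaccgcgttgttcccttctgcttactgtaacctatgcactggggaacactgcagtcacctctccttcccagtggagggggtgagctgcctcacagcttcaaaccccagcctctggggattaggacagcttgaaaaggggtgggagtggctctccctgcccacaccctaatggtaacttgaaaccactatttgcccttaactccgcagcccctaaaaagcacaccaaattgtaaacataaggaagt
The Isg15 window held 3 overlapping matches, with the first base of each at -78, -72 and -66. Positions count from 0 at the annotated start used for each window, along the gene's strand. The windows of Ifit3, Ifitm2 and Ifitm1 lay inside the annotated span of the gene, so that start is not the gene's outermost one. In Ifit3 the matches began at -156 and -122, and in Bst2 at -130 and -124. Ifitm2 had 1 match, at -46. Ifitm3 had 2, which lay just after the start. The Ifitm1 window had no match to these letters, which says nothing of sites elsewhere.

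Tumours 1 to 4 gave 798, 2589, 1229 and 1893 cells, with median UMI counts (distinct captured transcripts) of 15283.5, 7754, 6799 and 7825 per cell. Tumour 1 was thus the deepest per cell, and its table lists every gene, whereas those of tumours 2 to 4 list genes seen in at least 5 cells. That left 17 members unlisted for tumour 3, and 1 of them, Oas2, unlisted for tumour 2 as well. Among 6492 distinct barcodes, 17 occurred in more than 1 library. Ptch1 itself had 5 to 10 UMIs per library, and a count at the 3' end does not check the altered allele. Tumour 4 stood apart in make-up: 24.3% of its cells were myeloid-like and 20.6% neutrophil-like, and 263 of its cells lay in a cluster with markers of several developmental stages that was left unnamed. The labelled tumour type was checked against granule progenitor markers: all 10 were detected in the progenitor-like cells of each tumour, at 1682 to 4329 CPM in sum, against 82.7 to 223 CPM in myeloid-like cells. Progenitor-like cells came mostly from different clusters in each tumour: cluster 5 in tumour 1, clusters 0, 1 and 2 in tumour 2, cluster 6 in tumour 3 and cluster 7 in tumour 4. Levels are given as CPM, the UMIs of a gene per 1000000 UMIs of all cells of a class in a tumour, for classes with at least 10 cells. Since UMIs are counted at the transcript end, CPM is not scaled by gene length.

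Myeloid-like cells had higher summed levels than the tumour cells of the same tumour. Summed over all 44 genes, tumour progenitor-like cells (granule neuron progenitor-like and cycling cells) had 423, 293, 278 and 437 CPM in tumours 1 to 4. That class was not of like make-up in each tumour: 286 of its 294 cells in tumour 4 were cycling, against 66 of 584, 501 of 1800 and 222 of 916 in tumours 1 to 3. Neuron-like tumour cells had 325, 208, 209 and 397 CPM. Myeloid-like cells had 3671, 4993, 2005 and 3752 CPM. No myeloid-like value came near any tumour cell value, and the lowest of them, in tumour 3, rests on 11 cells.

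Dendritic cell-like cells, measured in tumours 1, 2 and 4, had 4362, 5038 and 4659 CPM. Plasmacytoid dendritic cell-like cells, the class specialised in making type I interferon, had 6888 CPM in tumour 2 (11 cells) and 5728 CPM in tumour 4 (21 cells). Both plasmacytoid values lay above every other class of these libraries. Neutrophil-like cells of tumour 4 had 4143 CPM. T and NK cell-like cells had less, 1674 CPM in tumour 2 (10 cells) and 1303 CPM in tumour 4. Astrocyte-like cells had 548, 759 and 1768 CPM in tumours 1, 3 and 4, and oligodendrocyte lineage-like cells 971, 389 and 608 CPM in tumours 2, 3 and 4. Each astrocyte-like value lay above every tumour cell value. Oligodendrocyte lineage-like values lay above the progenitor-like and neuron-like values of the same tumours. Across tumours they overlapped, as 389 CPM in tumour 3 was below the 437 CPM of progenitor-like cells in tumour 4. Both glial classes stayed below the myeloid-like values of the same tumours.

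**Figure D1:**
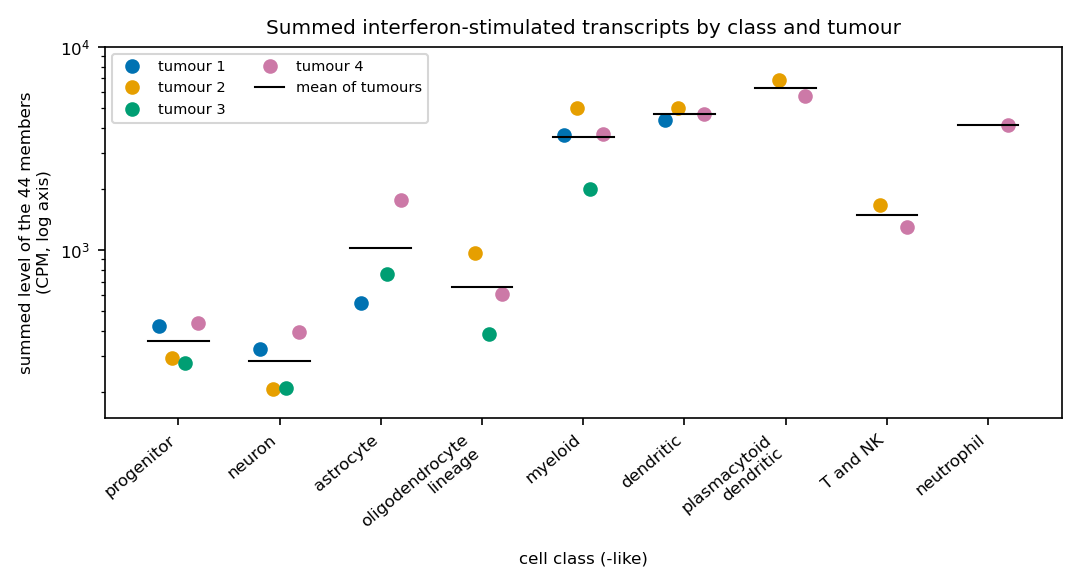
Summed level of the 44 interferon-stimulated genes in CPM (log axis) by cell class, 1 point per tumour with at least 10 cells of the class. Tumour cells sit between 208 and 437 CPM, and myeloid-like cells between 2005 and 4993 CPM.

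The genes that made up these sums differed by class. Ifitm2, a membrane protein that restricts entry of enveloped viruses, supplied 63.2%, 60.4%, 66.8% and 55.7% of the members' UMIs in progenitor-like cells. In myeloid-like cells Ifitm3, its close relative, was the leading gene in each tumour. Bst2, or tetherin, which holds budding virus at the cell surface, supplied 59.3% and 80.0% in plasmacytoid dendritic cell-like cells. Ifi27 led in oligodendrocyte lineage-like cells of tumour 2, with 62.4%, and of tumour 3. Neutrophil-like cells were led by Ifitm2 and then Ifitm1.

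**Figure D2:**
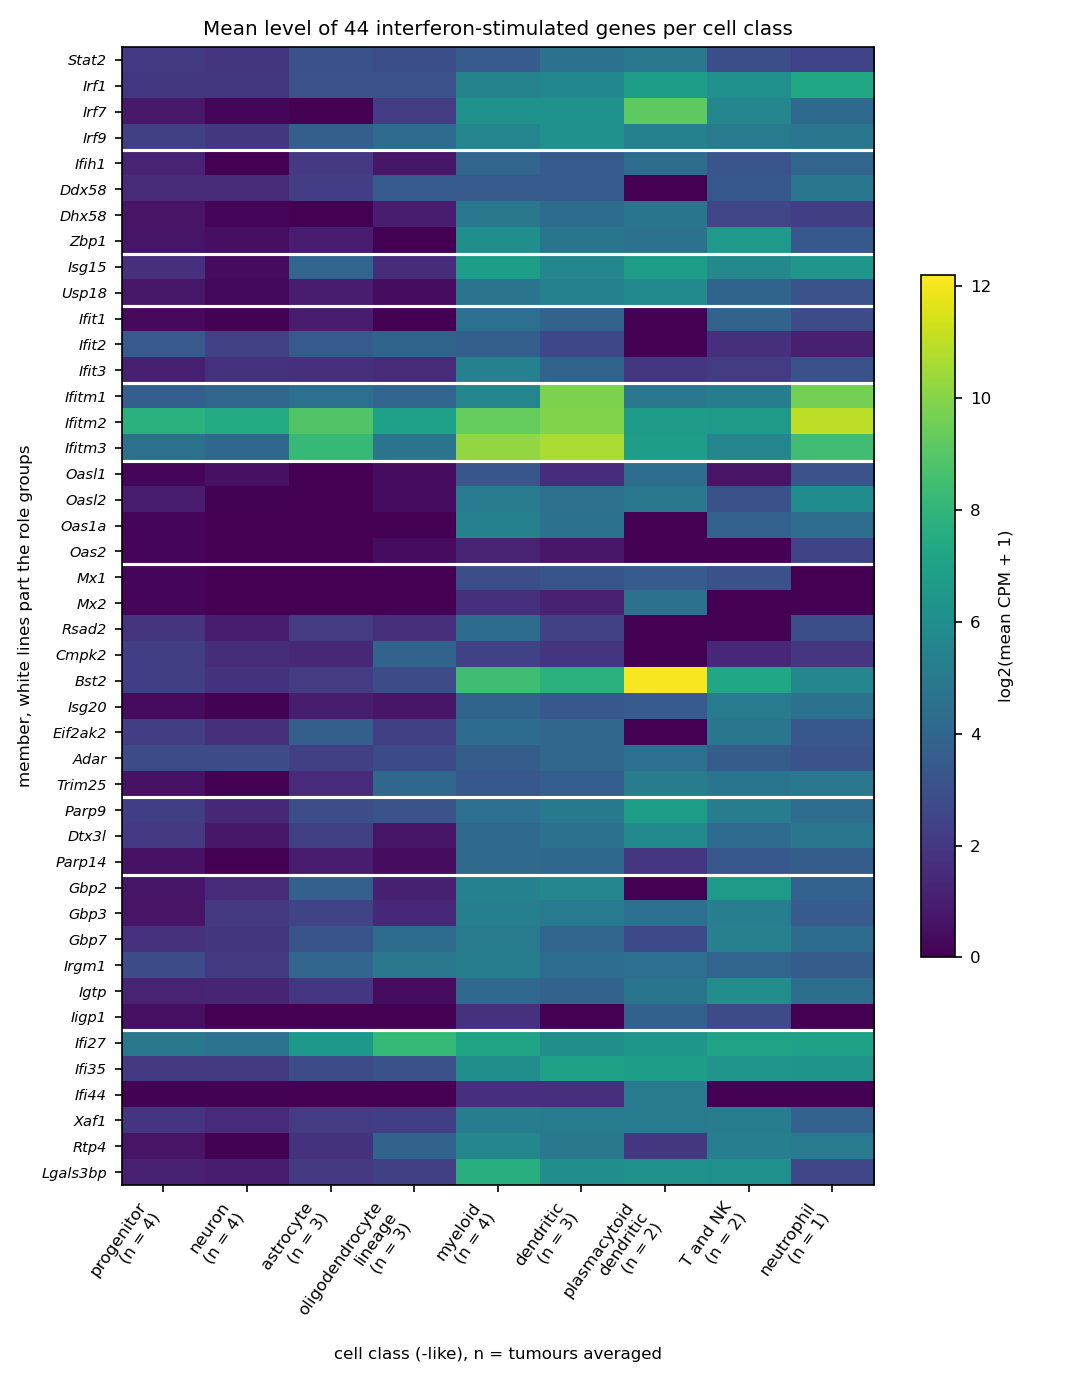
Mean level of each of the 44 genes (rows, grouped by role) in each cell class (columns) over its tumours, on a log2(mean CPM + 1) scale, with genes not listed for a tumour counted as 0. High values lie in the immune columns for most rows, while Ifitm2 and Ifi27 are present in every column.

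Myeloid-like cells (55, 93, 11 and 458 cells) were compared with the progenitor-like tumour cells of the same tumours. Of the 25 members that could be tested, 22 rose and none fell, with 2.58 to 5.18 log2 units for the 4 that changed most (Ifitm3, Bst2, Lgals3bp and Isg15). The members' median difference was 1.75 on the log2(CPM + 10) scale, against -0.52 for all 9852 genes tested, of which 11.5% were higher and 51.0% lower. All tests in this report are limma fits with the tumour as a block and Benjamini-Hochberg adjustment over all genes tested, called at an adjusted p under 0.05. Members entered if at least 5% of cells of either class had a UMI, and 20 of the 25 passed only through the myeloid-like cells, so that the count itself is partly set by the filter. Without that filter 23 of 27 were higher, against 9.52% of 12126 genes. Counting unlisted genes as 0, an alternative chosen after seeing the data, 33 of 36 were higher, against 14.2% of 10260 genes. The detection filter applied there too, and how many of the 36 passed only through the myeloid-like cells is not given.

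Transcription factors came first in the signalling order. Irf1, an activator induced mainly by interferon gamma, had 54.6, 57.0, 12.5 and 45.1 CPM in myeloid-like cells of tumours 1 to 4, and 3.77, 2.28, 0.853 and 4.84 CPM in progenitor-like cells. The ranges did not overlap, and Irf1 rose by 1.91 ± 0.27 (SE, n = 4 tumours, limma adjusted p = 2.6e-05). Irf9, the DNA-binding part of the type I complex, had 40.6, 61.9, 37.6 and 41.5 CPM, against 3.29 to 4.32 CPM in progenitor-like cells, and rose by 1.97 ± 0.23 (limma adjusted p = 5.5e-06). Stat2, its partner, did not pass the test: 17.2, 14.7, 0 and 9.19 CPM against 4.63, 2.51, 4.51 and 1.21 CPM gave 0.53 ± 0.25 (limma adjusted p = 0.0755). Irf7, which drives interferon genes themselves, was not listed for tumour 3. Elsewhere it had 101, 145 and 46.0 CPM in myeloid-like and 1.58, 0.780 and 0.807 CPM in progenitor-like cells, so that every myeloid-like value was far above.

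All 3 testable RNA sensors rose. Dhx58 (LGP2), a regulator of the other pair, had 28.1, 31.0, 37.6 and 18.2 CPM in myeloid-like cells and at most 0.613 CPM in progenitor-like cells, a difference of 1.85 ± 0.24 (limma adjusted p = 1.2e-05). Ifih1 (MDA5), which binds long viral RNA, rose by 1.11 ± 0.21 (limma adjusted p = 0.00032). Ddx58 (RIG-I), which recognises viral RNA ends, rose by 0.65 ± 0.23 (limma adjusted p = 0.021), was at 0 in the 11 myeloid-like cells of tumour 3, and lost its call without tumour 2 (adjusted p = 0.174). Zbp1, a sensor of Z-form nucleic acid that can trigger cell death, reached 79.6, 134 and 53.7 CPM in tumours 1, 2 and 4, against at most 1.61 CPM in progenitor-like cells.

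Isg15, a ubiquitin-like modifier, had the largest SE of the members tested. It had 162, 225, 0 and 59.0 CPM in myeloid-like cells and 3.71, 1.5, 0.853 and 2.82 CPM in progenitor-like cells. Tumour 3 thus went the other way, with no UMI in 11 cells, where 3 counts would correspond to 37.6 CPM. Isg15 rose by 2.58 ± 0.56 (limma adjusted p = 0.0024, higher in 3 of 4 tumours). Without tumour 1 the adjusted p was 0.123, and without tumour 3 the difference was 3.48. Usp18, the protease that removes Isg15 and restrains the type I receptor, had 14.0, 70.0 and 15.6 CPM in myeloid-like cells of tumours 1, 2 and 4, against 0.807 to 1.22 CPM. The tumour 2 value stood above the rest for both genes.

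The Ifit proteins bind foreign RNA and block its translation. Ifit3 had 49.9, 97.7, 0 and 12.4 CPM in myeloid-like cells against 0.947 to 1.40 CPM in progenitor-like cells, and rose by 1.64 ± 0.44 (limma adjusted p = 0.0072, higher in 3 of 4 tumours). Its call did not hold without tumour 1 (adjusted p = 0.0565). Ifit3 has a near-identical neighbour, Ifit3b, so its reads may be split. Ifit2 was not called, with 18.7, 22.8, 0 and 5.77 CPM in myeloid-like and 5.78, 6.91, 15.4 and 10.1 CPM in progenitor-like cells. It was higher in tumours 1 and 2 and lower in tumours 3 and 4. The 0 in tumour 3 rests on 11 cells, where 3 counts would correspond to 37.6 CPM. The ranges of the myeloid-like and progenitor-like cells overlapped, with a difference of 0.03 ± 0.33 (limma adjusted p = 0.938).

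The 3 Ifitm genes together had 1836, 2331, 890 and 2450 CPM in myeloid-like cells of tumours 1 to 4. Ifitm3 had 1045, 1735, 451 and 1522 CPM in myeloid-like cells, against 20.7, 13.9, 9.75 and 41.9 CPM in progenitor-like cells. Even the lowest myeloid-like value was more than the highest progenitor-like one by a wide margin, and Ifitm3 rose by 5.18 ± 0.22 (limma adjusted p = 9.6e-10). Ifitm2 had 740, 562, 438 and 829 CPM against 267, 177, 186 and 243 CPM, a smaller difference of 1.49 ± 0.15 (limma adjusted p = 8.4e-07) from a higher tumour cell level. Ifitm1, unlisted for tumour 3, had 51.5, 34.2 and 99.4 CPM in myeloid-like cells and 4.87, 0.724 and 40.7 CPM in progenitor-like cells. Reads may be shared among these similar genes.

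The OAS enzymes make the oligoadenylates that switch on RNase L, and none was listed in all 4 tables. Oas1a had 53.0, 48.9 and 56.0 CPM in myeloid-like cells of tumours 1, 2 and 4 and at most 0.403 CPM in progenitor-like cells, although closely related Oas1 copies make its counts uncertain. Oasl2 had 26.5, 65.2 and 30.4 CPM against 1.00 to 1.61 CPM. With unlisted genes counted as 0, Oas1a was higher by 1.96 ± 0.41 (limma adjusted p = 0.0025) and Oasl2 by 1.57 ± 0.37 (limma adjusted p = 0.004). Oas2 and Oasl1 were too sparse to test.

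Among other direct antiviral effectors, Bst2 had 298, 417, 401 and 292 CPM in myeloid-like cells and 5.72, 3.73, 0.366 and 5.24 CPM in progenitor-like cells. It was high in every tumour, tumour 3 included, and rose by 4.72 ± 0.22 (limma adjusted p = 9.6e-10). Eif2ak2 (PKR), which halts translation on sensing RNA duplexes, rose by 1.07 ± 0.25 (limma adjusted p = 0.002). Adar, which edits adenosine in such duplexes, did not pass (0.31 ± 0.26, limma adjusted p = 0.314). Mx1 and Mx2, GTPases that trap viral cores, stayed at or below 14.0 and 4.89 CPM in myeloid-like cells. Rsad2 (viperin) and its neighbour Cmpk2 were detected in too few cells of either class to be tested.

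Parp9 and Dtx3l, which act as a pair and overlap in the genome, rose by 1.08 ± 0.25 (limma adjusted p = 0.0015) and 0.92 ± 0.29 (limma adjusted p = 0.011). Dtx3l lost its call without tumour 1, 2 or 4, with adjusted p of 0.0517, 0.0806 and 0.0503. The interferon-inducible GTPases attack vacuoles that hold parasites or bacteria, and all 4 tested rose. Gbp2 had 74.9, 44, 25.1 and 15.6 CPM in myeloid-like cells against at most 0.974 CPM, a rise of 2.08 ± 0.28 (limma adjusted p = 2e-05). Gbp3 rose by 2.07 ± 0.27 (limma adjusted p = 1.7e-05). The Gbp genes lie side by side on chromosome 3 and resemble each other, so their separate counts are uncertain.

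All 5 remaining effectors rose. Lgals3bp, a secreted glycoprotein that binds galectin-3, had 184, 324, 200 and 104 CPM in myeloid-like cells and at most 2.42 CPM in progenitor-like cells, a rise of 4.15 ± 0.26 (limma adjusted p = 1.3e-08). Ifi35 had 73.3, 104, 25.1 and 52.2 CPM against 0.731 to 6.05 CPM (2.38 ± 0.27, limma adjusted p = 3.5e-06). Rtp4 had 42.1, 106, 0 and 48.5 CPM against at most 0.852 CPM and passed although it was at 0 in tumour 3 (2.04 ± 0.42, limma adjusted p = 0.00094). Ifi27 rose by 1.87 ± 0.27 (limma adjusted p = 3.9e-05) from a tumour cell level of 16.9 to 35.9 CPM. Among the 22 calls, Ddx58 and Dtx3l were also lost with a pseudocount of 1 (adjusted p = 0.127 and 0.171) and Isg15 and Ifit3 with a pseudocount of 50 (0.0644 and 0.0646). Ddx58 was lost with cells holding immune UMIs left out (0.116), without the tumour as a block (0.0519) and in 1 fit over all classes (0.0504), and Ifitm3 on the mean deposited log2 values (0.05).

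**Figure D3:**
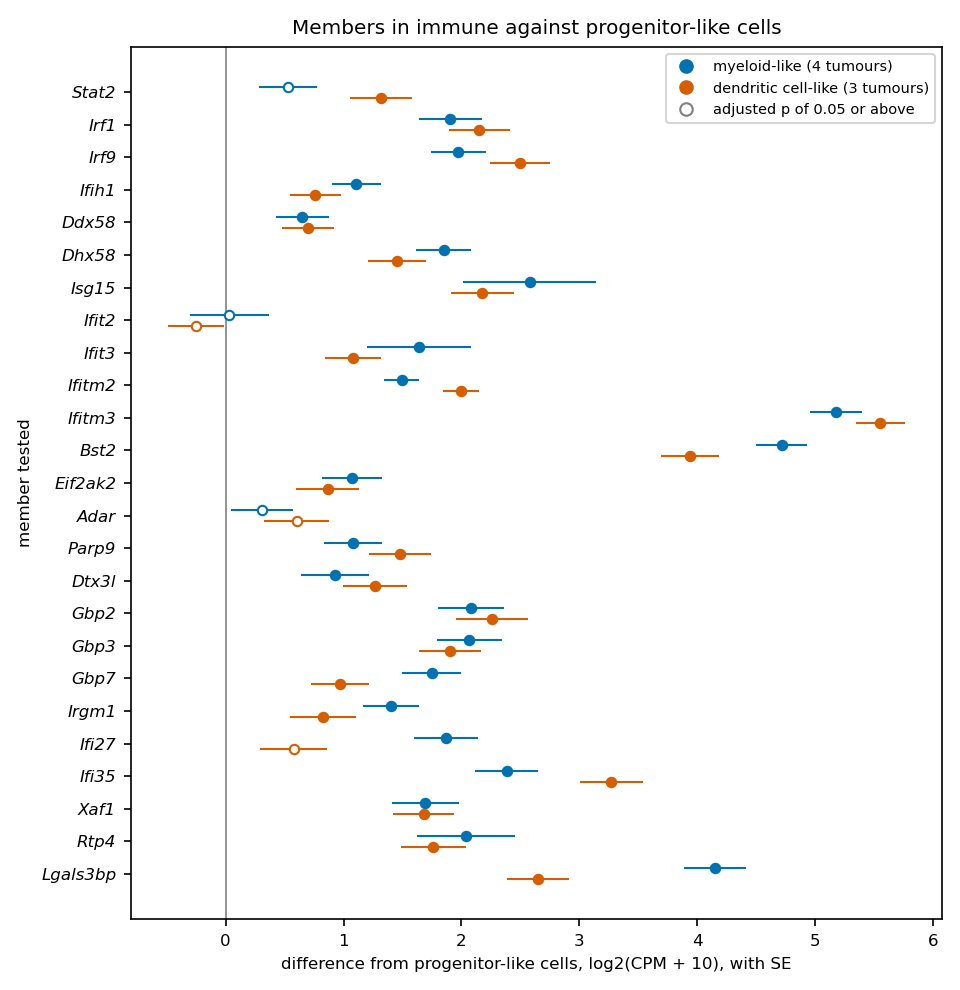
Difference of each of the 25 tested members from progenitor-like cells in log2(CPM + 10), for myeloid-like cells (blue, 4 tumours) and dendritic cell-like cells (orange, 3 tumours), with bars of 1 SE and open symbols for an adjusted p of 0.05 or above. Ifitm3, Bst2 and Lgals3bp lie farthest right in myeloid-like cells, at 5.18, 4.72 and 4.15.

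**Figure D4:**
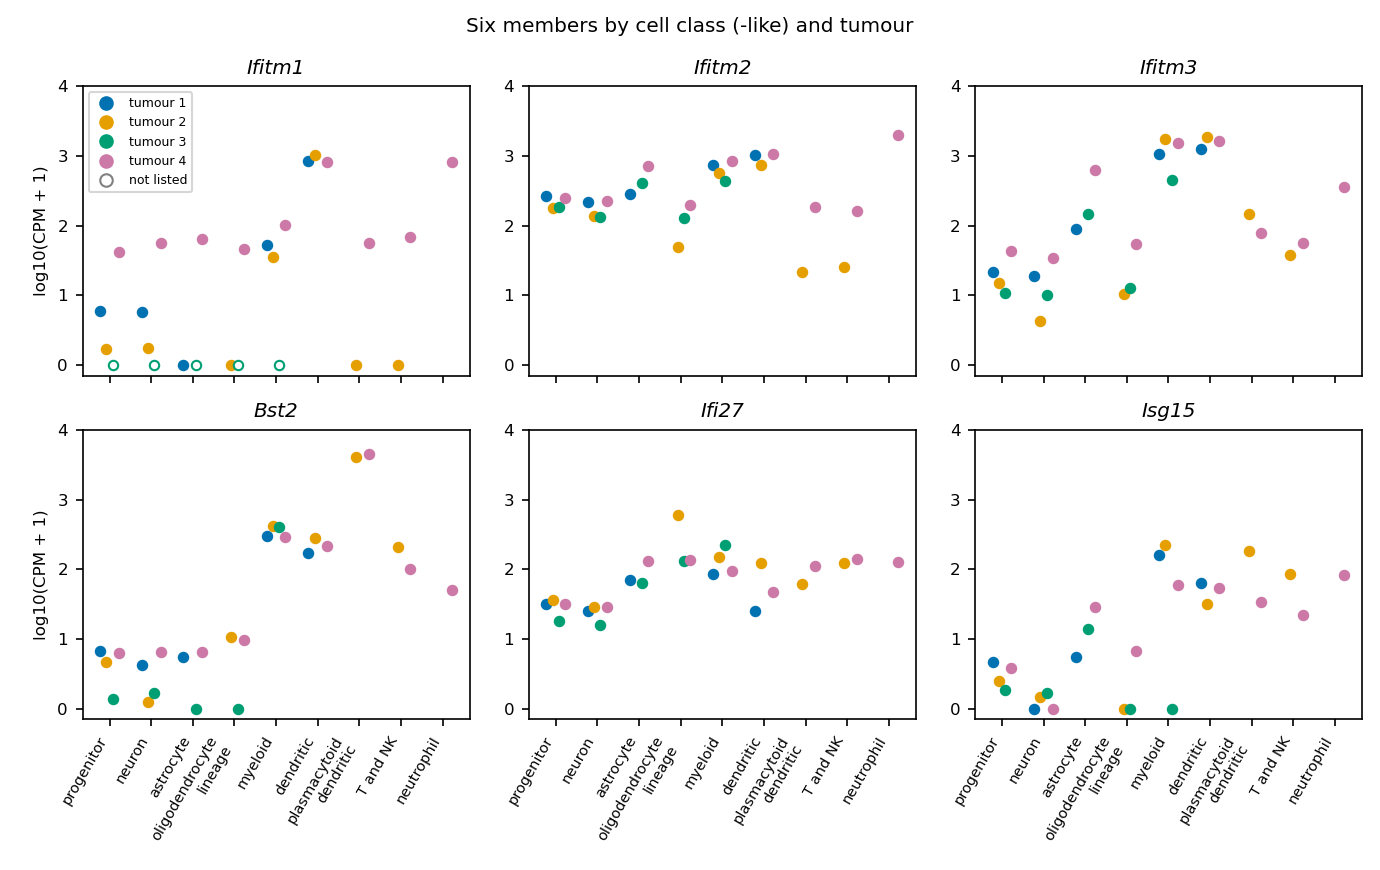
Level of 6 members as log10(CPM + 1) by class, 1 point per tumour, with open symbols where a table does not list the gene. Ifitm2 is above 100 CPM in progenitor-like cells of every tumour, whereas Isg15 stays below 4 CPM there.

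The myeloid-like class was not uniform. In tumour 4 its largest cluster (414 cells) had a summed level of 3854 CPM (95% Poisson interval 3797 to 3913), and the 27 cells of a cluster with microglia markers had 2000 CPM (1803 to 2213). These intervals cover counting error only, and the comparison rests on 1 tumour with no test. Ifitm3 had 1601 CPM in the large cluster and 203 CPM in the microglia-marked cells. Isg15 ran the other way, with 57.3 and 123 CPM, as did Bst2, with 275 and 384 CPM. The third cluster, of 17 cells, had 1093 CPM of Bst2 (865 to 1362) and no UMI of Isg15.

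Dendritic cell-like cells (35, 30 and 190 cells in tumours 1, 2 and 4) carried these genes at a summed level like that of the myeloid-like cells. Ifitm3 was the leading member in both classes. In tumour 2 the second member was Ifitm1 in dendritic cell-like and Ifitm2 in myeloid-like cells. The dendritic cell-like class was compared after the clusters had been seen. Against progenitor-like cells, which also served as the reference above, 22 of 25 testable members rose and none fell, where 10.3% of 9957 genes were higher, and 17 of the 25 entered only through the dendritic cell-like cells. The members' median difference was 1.48 against -0.48 over all genes. With unlisted genes counted as 0, 34 of 37 were higher, against 13.8% of 10441 genes. Tumours 1, 2 and 4 list every member except Oas2 in tumour 2. The detection filter applied there too, and how many of the 37 passed only through the dendritic cell-like cells is not given. Ifitm3 had 1266, 1855 and 1650 CPM (5.55 ± 0.21, limma adjusted p = 5e-14). Stat2 passed here, with 19.1, 30.4 and 17.1 CPM (1.32 ± 0.26, limma adjusted p = 0.00026). Ddx58, Eif2ak2, Ifih1 and Irgm1 lost their calls without tumour 1, and Eif2ak2 and Irgm1 without tumour 4. Ddx58, Eif2ak2, Ifih1, Irgm1 and Ifit3 also lost calls under other settings, such as thinned cells (adjusted p = 0.124 for Ifih1) or the mean deposited log2 values (0.083 for Ifit3).

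The direct comparison of dendritic cell-like with myeloid-like cells, in 3 tumours, showed which members differed. Of 24 members tested, 2 rose and 6 fell in dendritic cell-like cells, where 6.1% of 7805 genes were higher and 6.76% lower. The share higher, 2 of 24, is near that background. With no filter on detection none of the 8 was called by limma, with adjusted p from 0.0521 for Rtp4 to 0.31 for Ifit3, although 10 of 27 members had an unadjusted p under 0.05. None of the 8 was called on the mean deposited log2 values, with adjusted p from 0.0571 for Lgals3bp to 0.508 for Isg15, and 2 of the 8 were in 1 fit over all classes. Ifi35 had 139, 157 and 84.3 CPM in dendritic cell-like cells and was higher in 3 of 3 tumours by 0.66 ± 0.17 (limma adjusted p = 0.0066). Ifitm2 was higher by 0.41 ± 0.10 (limma adjusted p = 0.0073). Lgals3bp fell by 1.45 on the log2 scale (SE 0.24, limma adjusted p = 0.0005), with 71.1, 50.7 and 64.1 CPM. Isg15 fell by 1.30 (SE 0.36, limma adjusted p = 0.045), with 62.9, 30.4 and 53.6 CPM. Ifit3, Rtp4, Ifi27 and Bst2 fell by 1.15, 0.97, 0.87 and 0.58 (limma adjusted p = 0.037, 0.0019, 0.0027 and 0.0016). Ifi35, Ifit3, Ifitm2 and Isg15 lost their calls without tumour 1, Ifit3 also without tumour 2, and without the tumour as a block only 1 of the 8 calls was made.

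Ifitm1 was not listed for tumour 3 and was tested in the fit with unlisted genes counted as 0. It had 837, 1039 and 806 CPM in dendritic cell-like cells, with a UMI in 31.4%, 53.3% and 72.6% of them, against 51.5, 34.2 and 99.4 CPM in the myeloid-like cells of the same tumours, where 18.2%, 9.68% and 41.9% had one. The levels did not overlap. Ifitm1 was higher by 3.75 ± 0.33 (limma adjusted p = 0.0027), and 3 of 36 members were higher and 6 lower, where 6.84% of 8347 genes were called in each direction. Zbp1 went the other way, lower by 1.43 in all 3 tumours (SE 0.22, limma adjusted p = 6.9e-05), as did Oas1a, lower by 1.02 (SE 0.23, limma adjusted p = 0.0034). Isg15 and Ifit3 were not called in that fit.

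The remaining immune classes had too few tumours for a test, so their values are descriptions. Plasmacytoid dendritic cell-like cells had 4088 CPM of Bst2 in tumour 2 and 4580 CPM in tumour 4, where the highest value of any other class was 417 CPM. Bst2 is a known surface marker of this cell type in mice, and a UMI of its transcript was found in each of the 11 and 21 cells. Their Irf7, which in plasmacytoid cells is known to be present without prior stimulation, was 1042 CPM in tumour 2 and 105 CPM in tumour 4. Neutrophil-like cells of tumour 4 had 2014 CPM of Ifitm2, 811 CPM of Ifitm1 and 352 CPM of Ifitm3. Their Irf1, at 155 CPM, was above the 45.1 CPM of the myeloid-like cells of that tumour. T and NK cell-like cells of tumours 2 and 4 had 170 and 27.5 CPM of Gbp2 and 72.8 and 57.2 CPM of Igtp, a GTPase of the same defence system. Zbp1 reached 133 and 59.4 CPM there, about as in the myeloid-like cells of the same tumours.

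Few members were above 10 CPM in the tumour cells themselves. Apart from Ifitm2, the members above 10 CPM in progenitor-like cells of all 4 tumours were limited to Ifi27, with 31.3, 35.9, 16.9 and 30.7 CPM. Ifitm3 reached 41.9 CPM in tumour 4 and 9.75 CPM in tumour 3. Among these genes, Ifitm3 and Ifitm1 were highest where immune cell markers were highest. The 12 myeloid markers summed to 208, 51.6, 24.6 and 564 CPM in progenitor-like cells of tumours 1 to 4, and the 8 neutrophil markers to 135, 30.7, 6.46 and 708 CPM, with 10 to 12 and 5 to 7 of them detected. Tumour 4 was highest for both lists and for Ifitm3 and Ifitm1, while Ifi27 was highest in tumour 2 and Ifitm2 in tumour 1. Their part in the result was not tested. In the cells that had no UMI of 10 immune genes, the summed level of the 44 members was 415, 294 and 276 CPM in tumours 1 to 3. The tumour 1 value rests on 31 of 584 cells and tumour 4, where 1 of 294 cells was left, gave no value.

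Neuron-like tumour cells (38, 577, 224 and 26 cells) allowed a test of 5 members. Of these, Ifit2, Ifitm3 and Adar entered the test only through the progenitor-like cells. None was called higher and 1, Ifitm2, was called lower, where 15.5% of 9592 genes were higher and 11.9% lower. Ifitm2 had 219, 137, 131 and 220 CPM against 267, 177, 186 and 243 CPM in progenitor-like cells, so each tumour went the same way. It fell by 0.31 on the log2 scale (SE 0.10, limma adjusted p = 0.041). The call was lost without tumour 1, 2 or 3 (adjusted p = 0.0868, 0.168 and 0.211) and without the tumour as a block (0.371). With cells thinned to 1 number of UMIs the adjusted p was 0.198, with no filter 0.054, with no doublet removal 0.0736, in 1 fit over all classes 0.554 and with genes scaled within tumours 0.164. Myeloid markers were also lower in neuron-like cells, at 139, 21.5, 18.6 and 512 CPM, with 9 or 10 of 12 detected, and their part in the result was not tested.

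Cycling cells were compared with non-cycling granule progenitor-like cells in tumours 1 to 3. Ifitm2 was again the member that moved, with 195, 119 and 139 CPM in cycling cells and 272, 209 and 202 CPM in the non-cycling ones. It fell by 0.57 (SE 0.10, limma adjusted p = 2.9e-05), and the 2 groups did not overlap. It was 1 of 9 members tested, where 5.47% of 9707 genes were higher and 6.47% lower. Ifitm3 was lower in 3 of 3 tumours without passing (-0.35 ± 0.13, limma adjusted p = 0.0584). The Ifitm2 call was lost without the tumour as a block (adjusted p = 0.31) when the doublets called were kept (0.738), on the mean deposited log2 values (0.0785) and in 1 fit over all classes (0.9995). In that last fit no gene at all passed. The 12 myeloid markers summed to 147, 36.3 and 15.1 CPM in cycling cells and to 212, 59.8 and 27.8 CPM in the non-cycling ones, and their part in the result was not tested.

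Astrocyte-like cells (11, 20 and 24 cells in tumours 1, 3 and 4) had more of the Ifitm genes than tumour cells did. Ifitm3 had 87.4, 147 and 628 CPM, each above every progenitor-like value, and rose by 2.76 ± 0.27 (limma adjusted p = 3.7e-06). Ifi27 had 69, 63.8 and 133 CPM (1.40 ± 0.25, limma adjusted p = 0.0023) and Ifitm2 281, 408 and 717 CPM (0.89 ± 0.20, limma adjusted p = 0.012). These were the 3 calls among 20 members tested, where 2.35% of 10578 genes were higher, and each was higher in 3 of 3 tumours. Without tumour 4 the adjusted p was 0.113 for Ifi27 and 0.312 for Ifitm2, and without the tumour as a block it was 0.163 for Ifitm3, 0.0822 for Ifi27 and 0.253 for Ifitm2. With no filter on detection Ifi27 (0.0657) and Ifitm2 (0.202) were not called. Ifitm3 was not called with a pseudocount of 50 (0.119), nor Ifitm2 with a pseudocount of 1 (0.092), on the mean deposited log2 values (0.311) or in 1 fit over all classes (0.105). Myeloid markers summed to 152, 128 and 921 CPM and neutrophil markers to 101, 0 and 1544 CPM in these cells, with the maximum in the tumour where Ifitm3 and Ifitm2 peaked. Their part in the result was not tested.

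Oligodendrocyte lineage-like cells (16, 42 and 53 cells in tumours 2, 3 and 4) had 606, 130 and 135 CPM of Ifi27. In tumour 4 neutrophil-like cells had 125 CPM and the astrocyte-like value above was also close. The level there was thus not particular to the oligodendrocyte lineage-like class. Ifi27 rose by 2.65 ± 0.32 (limma adjusted p = 0.001). Irgm1, a regulator of the vacuole-attacking GTPases, had 48.1, 16.6 and 17.5 CPM and rose by 1.27 ± 0.33 (limma adjusted p = 0.036). Irgm1 was 1 of 14 members that entered the test only through the oligodendrocyte lineage-like cells. Its adjusted p was 0.0623 with no filter on detection, 0.058 with a 10% filter, 0.0835 with a pseudocount of 1, 0.0699 without the tumour as a block, 0.0548 at clustering resolution 2, 0.0562 with the mixed-stage cluster joined and 0.211 with genes scaled within tumours. These were the 2 calls among 18 members tested, where 6.9% of 10389 genes were higher. Ifitm2 had 48.1, 128 and 194 CPM, below the progenitor-like cells of each tumour, at -0.84 ± 0.26 (limma adjusted p = 0.0663). It was called lower with median-of-ratios scaling (adjusted p = 0.0095) and with thinned cells (0.0188). Without tumour 4, 4 members were called. Myeloid markers summed to 19.2, 9.48 and 737 CPM here, and neutrophil markers to 115, 64 and 817 CPM. Their part in the result was not tested.

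Within single cells, members were counted after thinning each cell to 4900 UMIs, which left out 1259 shallower cells. Progenitor-like cells then had UMIs of 1.34, 1.05, 1.02 and 1.59 members on average in tumours 1 to 4. Myeloid-like cells had 6.4, 7.50 and 6.27 in tumours 1, 2 and 4, and dendritic cell-like cells 6.83, 7.16 and 6.25. The classes differed by much more than the tumours did. At least 10 members were found together in 14.9% of myeloid-like and 14.4% of dendritic cell-like cells as a mean over tumours, and in 0.0151% of progenitor-like cells. No member was found in 21.2% of progenitor-like cells and 29.5% of neuron-like cells.

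**Figure D5:**
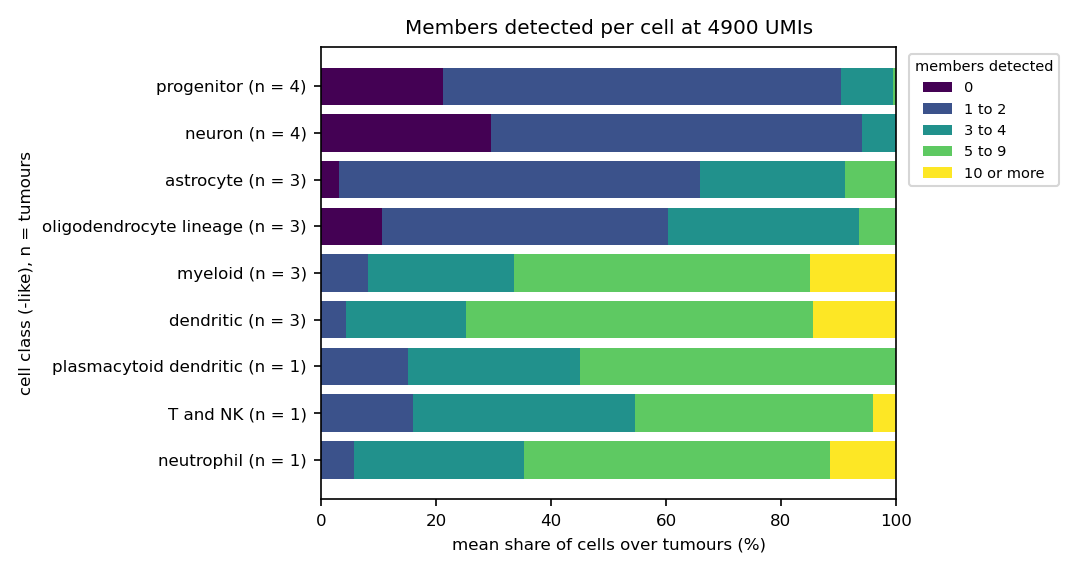
Percent of cells of each class by the number of members with a UMI at 4900 UMIs per cell, as a mean over tumours. Myeloid-like cells peak at 5 to 9 members (51.6%), and progenitor-like cells at 1 to 2 members (69.4%).

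In myeloid-like cells the Ifit genes marked a minority with high levels of the rest. An Ifit UMI was present in 5 of 55 cells of tumour 1, 10 of 60 of tumour 2 and 27 of 406 of tumour 4. Those cells had 19224, 9367 and 7203 CPM of the other members, against 2429, 2927 and 3738 CPM in the other myeloid-like cells of the same tumours. The order was the same in all 3 tumours. Whether single cells dominated these means was not checked. Dendritic cell-like cells of tumours 1, 2 and 4 went the same way. Those with an Ifit UMI (6, 4 and 11 cells) had 6054, 8214 and 9239 CPM, and the others 4433, 4519 and 4397 CPM. In progenitor-like cells the order was not the same: 369, 507, 259 and 549 CPM with an Ifit UMI and 386, 286, 275 and 405 CPM without. The value of 507 CPM in tumour 2 rests in part on 1 cell and is 316 CPM without it. These are descriptions over cells of the same libraries.

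A single progenitor-like cell of tumour 2 carried 24 of the 44 members, with 73 of their UMIs at the thinned depth, and the next highest progenitor-like cell had 8 members. It had 25 UMIs of Ifitm3, 6 of Ifit1, 4 each of Bst2 and Iigp1, and 3 each of Oasl2 and Rsad2. At that thinned depth it had no UMI of the 10 immune genes and 12 UMIs of granule progenitor markers. Before thinning the cell had 13401 UMIs. Progenitor-like cells with at least 3 members besides Ifitm2 and Ifi27 numbered 11, 23, 3 and 6 in tumours 1 to 4, and 8, 2, 1 and 6 of them had a UMI of an immune gene. Over all progenitor-like cells of at least 4900 UMIs that share, also counted at the thinned depth, was 61.3%, 10.9%, 6.62% and 98.6%. At full depth it was larger in tumour 1, where only 31 of 584 cells had no such UMI. Such an immune UMI was therefore common in tumours 1 and 4 whether or not a cell carried these members.

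The rest of the pathway was read from lists of genes other than the 44. Of 10 interferon genes, none was detected widely enough to test in any comparison. Ifng had 69 UMIs in T and NK cell-like cells, 8 in myeloid-like cells and at most 2 in any other class. All 69 came from tumour 4, so this rests on 1 library. Of the type I genes, Ifnb1 had 2 UMIs and Ifnk 8 in progenitor-like cells. Interferon gamma was thus the ligand with the most UMIs.

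All 5 receptor chains tested rose in myeloid-like cells, where 11.5% of 9852 genes were higher than in progenitor-like cells. That share applies to each count for this class below. How many genes of these lists passed the detection filter only through the myeloid-like cells was not counted. Ifnar2 had 191 ± 35.5 CPM (SD, n = 4) against 10.8 ± 4.69 CPM in progenitor-like cells, a rise of 3.29 (limma adjusted p = 1.5e-08). Ifngr2 rose by 3.18 and Il10rb, shared with the interleukin-10 and lambda interferon receptors, by 3.95. Tumour cells were not without receptors: Ifngr1 had 28.4 ± 5.25 CPM and Ifnar1 24.9 ± 10.2 CPM (SD, n = 4) in progenitor-like cells. Of 5 Janus kinase and STAT genes 4 rose, with 58.9 ± 12.8 CPM of Stat3 against 13.9 ± 5.98 CPM (SD, n = 4, a rise of 1.54, limma adjusted p = 5.9e-05).

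Among inhibitors of the pathway 5 of 7 rose in myeloid-like cells, led by the phosphatase Ptpn6 (4.46, limma adjusted p = 1.2e-09), where 11.5% of all genes tested were higher. Of the genes that sense nucleic acid and induce interferon 6 of 10 rose, led by Irf8 (4.76), a factor of myeloid development. Of 14 other interferon-induced genes tested 10 rose, led by the immunoproteasome subunit Psmb8 (5.07, 475 ± 55.3 CPM against 5.21 ± 6.15 CPM). No gene of these lists fell. Dendritic cell-like cells had 5 of 5 receptors and 5 of 5 kinase and STAT genes higher than progenitor-like cells, where 10.3% of 9957 genes were higher. Against myeloid-like cells, 3 of their 5 receptor chains were lower (Il10rb by 0.96, Ifnar2 by 0.90, Ifngr2 by 0.65), where 6.76% of 7805 genes were lower. In neuron-like cells Ifnar1 and Ifngr2 rose by 0.57 and 0.55 (limma adjusted p = 0.014 and 0.022). They were 2 of 4 receptor chains tested there, where 15.5% of 9592 genes were higher.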

How the data were processed

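The 4 tables of 10x Genomics single-cell libraries hold log2 values per gene and cell, deposited by the authors; the submitters' processing notes name Cell Ranger, Seurat and build mm10, with no versions. The values were log2(UMI / size factor + 1), and dividing each cell's unlogged values by their smallest gave whole UMI counts to a tolerance of 1e-08. No table column was left unused.

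Scrublet called 16 of 6509 cells as doublets where 99.5 would be expected, so it did not work as a caller, and those 16 cells were removed. Cells were clustered with scanpy 1.11.5 and leidenalg 0.10.2 (1000 variable genes, 30 components, 15 neighbours, resolution 1), with the members and pathway lists kept out of the genes used. The 22 clusters were named from marker lists, with naming thresholds set after the clusters were seen. UMIs were summed per tumour and class. limma 3.58.1 (R 4.3.3, trend and robust) was fitted to log2(CPM + 10) with the tumour as a block, which pairs classes taken from the same tumour. Genes tested were listed in all 4 tables, were detected in 5% or more of the cells of 1 of the classes, and were neither markers nor genes used for clustering. A class needed 10 cells in each of at least 3 tumours, so 4 planned comparisons of T and NK cell-like and neutrophil-like cells could not be tested, and 2 comparisons of dendritic cell-like cells were added. The p-values measure the spread between these libraries. The fits were tested on simulated data: 4-fold changes (log2 of 2) were recovered in 64% of cases for myeloid-like and 48% for astrocyte-like cells against progenitor-like cells. For genes under 20 CPM these shares were 36.4% and 21.8%. Changes of log2 of 1 were recovered in 9% and 11% of cases. For neuron-like against progenitor-like and cycling against granule progenitor-like cells, 4-fold changes were recovered in 93% and 98% of cases. Each simulation changed 200 genes at a fixed dispersion. More genes than that were called in the real fits, so these shares need not carry over to them.

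The members and lists were chosen with earlier results of these data known. Members are described by role, with full values for at most 12 past the threshold per comparison and for the highest member of each role group. For each other list, values are given for at most 3 genes. Trim25, Isg20, Parp14, Gbp7, Xaf1 and Ifi44 have no values in the text, though Gbp7 and Xaf1 are counted among the rises in myeloid-like cells. Alternatives covered scale, depth, pseudocount, filters, block, tumours left out, doublets and clustering. Intervals and floors cover counting error only, with a floor of 3 counts. The values of 1 gene of the pathway lists are not reported here.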

Additional observations from a re-analysis of the deposited data

Results flagged for a closer look

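Irf9 in the myeloid-like cells of tumour 2, at 61.9 CPM, stood apart from the other 3 tumours, at 40.6, 37.6 and 41.5 CPM: its gap to the next value was 0.84 of the whole range, above Dixon's critical value for 4 samples. It was 1 of 35 groups of 4 tumours examined, and chance alone sets apart about 1 in 20 groups.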

How the results depend on the processing

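No called member changed direction among the alternatives. Of 481 values for members called in myeloid-like against progenitor-like cells, 467 kept their side of the threshold, as did 373 of 390 for dendritic cell-like against progenitor-like cells, but only 101 of 151 for dendritic cell-like against myeloid-like cells. Counts of called members follow. Myeloid-like: 22, or 19 to 24 with a tumour left out, 21 without the tumour as a block and 33 with unlisted genes counted as 0. Dendritic cell-like against progenitor-like: 22, or 19 to 21 with a tumour left out and 34 with unlisted genes as 0. Dendritic cell-like against myeloid-like: 8, but 1 on the mean deposited log2 values, 0 with no filter on detection, 1 without the block, 2 with 1 fit over all classes, and 4 to 10 with a tumour left out. Neuron-like: 1, but 0 with thinned cells, without the block, with no doublet removal or in 1 fit over all classes, 2 at resolution 0.5, 4 at resolution 2, 3 with genes scaled within each tumour, and 0 to 1 with a tumour left out. Astrocyte-like: 3, but 1 with no filter, 0 without the block, and 1 to 3 with a tumour left out. Oligodendrocyte lineage-like: 2, but 5 on mean log2 values or median-of-ratios scaling, 1 with a pseudocount of 1, with no filter, with a 10% filter, without the block, with the mixed-stage cluster joined or with genes scaled within each tumour, 6 in 1 fit over all classes, and 3 to 4 with a tumour left out. Cycling: 1, but 0 on mean log2 values, without the block, with no doublet removal or in 1 fit over all classes, and 2 with thinned cells, with no filter, at resolution 2 or with the highest doublet scores left out; it was 1 with any tumour left out. The cause was not tested. Without doublet removal limma called no gene in that comparison, with 681 at an unadjusted p under 0.05.

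Median-of-ratios scaling moved the median of all genes from -0.52 to -0.28 for myeloid-like, from -0.48 to -0.23 for dendritic cell-like and from 0.07 to -0.08 for oligodendrocyte lineage-like against progenitor-like cells. Genes called higher and lower went from 1134 and 5021 to 1576 and 3572, from 1028 and 4664 to 1601 and 3188, and from 717 and 182 to 715 and 808. They went from 1485 and 1143 to 1071 and 1426 for neuron-like, from 249 and 62 to 327 and 184 for astrocyte-like, and from 531 and 628 to 680 and 390 for cycling cells. Members called were 23 of 25 in myeloid-like and 24 of 25 in dendritic cell-like cells under that scaling. Counting unlisted genes as 0, leaving out the highest doublet scores, joining the mixed-stage cluster and scaling within tumours were chosen after seeing the data. Some alternatives left too few cells or tumours to give a value, such as the astrocyte-like and dendritic cell-like classes at resolution 0.5. Those planned for T and NK cell-like and neutrophil-like cells were not run. The 11 myeloid-like cells of tumour 3 limit what could be detected there.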
